A study of Mus musculus with 8 samples.

Results

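The AP-1 immediate-early factors studied here were the genes Fos, Fosb, Fosl2, Jun, Junb, Jund and Atf3, which encode leucine zipper proteins, and the early response genes Ier2 and Ier3. Their members were every probe set that the platform annotation assigns to one of these symbols, 12 probe sets for 9 of the 18193 genes with a probe set on the array. Fosl2, Jun and Jund had 2 probe sets each and the other genes 1. The samples were sorted mouse CD4+ T cells, with 1 Affymetrix array each and 8 arrays in all. The mice were hemizygous males in which Foxp3, the X-linked factor that defines regulatory T cells, carried an enhanced green fluorescent protein (EGFP) tag on either the wild-type (WT) allele or a mutant allele that the labels call delta. For each allele there were 3 arrays of EGFP-positive cells and 1 array of EGFP-negative cells, where EGFP-negative cells are CD4+ cells in which the tag was not seen. The strain and age of the mice, any treatment and whether replicates came from separate animals are stated nowhere in the sources used here. The p-values therefore reflect how these samples scatter, which can be technical.

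AP-1 is a transcription factor made of pairs of proteins, a Fos family member with a Jun family member or a pair of Jun proteins, joined through their leucine zippers and bound to short DNA sites. In T cells, signalling from the antigen receptor through the ERK and JNK kinases induces Fos and Jun within minutes and modifies the proteins, and AP-1 then acts with NFAT on cytokine genes. The same genes are known to be induced by cell stress, including the handling of tissue and cells before RNA is extracted, and their messenger RNAs are short-lived.

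The start regions of 4 members are shown because Fos, Fosb and Jun were among the members with the widest ranges within a group, and Ier3 had the only call between the alleles. Each window runs from 250 bases before to 50 bases after the start in RefSeq (GRCm38.p6), and is written 5′ to 3′ in the direction of the gene. Capitals mark matches on either strand to TGACG (the core of the cyclic AMP element), the GC box GGGCGG (which reads CCGCCC when on the opposite strand), the TATA sequence TATAAA, or TGACATCA, a site known from the Jun promoter and added after the sequences were seen. The windows are Fos at chr12:85473640-85473939 (plus strand), Fosb at chr7:19309996-19310295 (minus), Jun at chr4:95052173-95052472 (minus) and Ier3 at chr17:35821463-35821762 (plus).
Fos: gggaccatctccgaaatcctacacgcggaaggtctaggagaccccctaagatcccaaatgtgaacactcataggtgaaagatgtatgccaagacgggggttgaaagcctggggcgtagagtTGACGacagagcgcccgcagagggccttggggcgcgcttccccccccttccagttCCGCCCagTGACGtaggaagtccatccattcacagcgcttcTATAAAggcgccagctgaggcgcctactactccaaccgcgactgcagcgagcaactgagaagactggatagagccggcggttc
Fosb: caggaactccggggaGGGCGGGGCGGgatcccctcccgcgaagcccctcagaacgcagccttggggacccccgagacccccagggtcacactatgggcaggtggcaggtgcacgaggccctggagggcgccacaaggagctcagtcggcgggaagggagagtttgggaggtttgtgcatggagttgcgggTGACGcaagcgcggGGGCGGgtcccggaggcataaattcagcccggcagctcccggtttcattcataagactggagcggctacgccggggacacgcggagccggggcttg
Jun: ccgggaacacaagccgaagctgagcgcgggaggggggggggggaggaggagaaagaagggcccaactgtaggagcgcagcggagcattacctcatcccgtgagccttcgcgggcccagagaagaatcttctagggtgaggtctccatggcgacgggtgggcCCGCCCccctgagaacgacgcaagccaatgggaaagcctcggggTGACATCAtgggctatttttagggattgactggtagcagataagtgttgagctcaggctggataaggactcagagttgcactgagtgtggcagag
Ier3: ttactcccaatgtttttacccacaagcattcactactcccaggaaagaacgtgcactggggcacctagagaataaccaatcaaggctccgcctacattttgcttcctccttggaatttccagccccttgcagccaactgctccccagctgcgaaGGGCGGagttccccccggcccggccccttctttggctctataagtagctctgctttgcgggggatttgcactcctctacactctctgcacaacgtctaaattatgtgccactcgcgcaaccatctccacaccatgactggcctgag

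RefSeq windows were found for 8 of the 9 members, all but Ier2. TGACG was present in 4 of the 8, Fos, Fosb, Junb and Atf3, against 20.8% of all 32851 windows of that length. GGGCGG was present in 6 of the 8, against 35.7% of all windows, and 2 of its matches in Fosb share a base. TATAAA was present in Fos and Junb, 2 of the 8, against 13.6%. The match in Fos began 33 bases before the start, and that in Junb at the start itself. TGACATCA was present in Jun, 45 bases before the start, against 3.62%. The full cyclic AMP element TGACGTCA (1.79% of all windows), which contains TGACG, the AP-1 site TGANTCA (7.81%) and the CArG box bound by serum response factor (1.63%) matched in 0 of the 8 windows. A match is a description of the sequence, and says nothing of binding in these cells. Sites farther than 250 bases before the start were not searched, so a count of 0 holds for the windows alone.

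All levels below are log2 of the deposited intensity, differences are on the log2 scale, and levels are compared between arrays for the same probe set and never between probe sets. Array medians lay between 53.3 and 54.7 on the linear scale, and the number of arrays limits the precision. The T cell markers Cd3e, Cd3d, Cd3g, Cd4 and Cd5 averaged 12.09 to 12.29 in every array. The Foxp3 probe set read 4.75, 4.86 and 4.64 in the arrays labelled WT EGFP-positive, 4.52 in WT EGFP-negative, 6.14 in delta EGFP-negative, and 11.10, 11.51 and 11.21 in delta EGFP-positive. A low Foxp3 reading is at odds with the WT EGFP-positive label, and the labels do not say where this probe set lies in the tagged or mutant gene. Ikzf2, Il2ra, Ctla4 and Tnfrsf18, other genes typical of regulatory T cells, rose in WT EGFP-positive against WT EGFP-negative arrays, as 4 of the 5 regulatory T cell markers measured (limma adjusted p between 0.00018 and 0.031). Of all genes 1.02% rose there. Directions between alleles therefore rest on the labels. In the delta EGFP-negative array Ikzf2, Il2ra, Ctla4 and Tnfrsf18 read 11.48, 7.47, 9.26 and 10.20. They read 7.98, 5.38, 6.09 and 9.46 in the WT EGFP-negative array. Their differences between EGFP-positive and EGFP-negative arrays were 0.63, 1.72, 1.69 and 1.11 for delta, and 4.18, 4.56, 5.48 and 1.96 for WT. The EGFP-negative arrays of the alleles, 1 each, were thus not alike in these genes. The numbers that open the sample titles form 3 runs, the first with 1 array of each group and the others with 1 WT and 1 delta EGFP-positive array each. What the numbers stand for is not stated in the labels.

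The members varied more between replicates of a group than most probe sets, and in a shared order. In the WT EGFP-positive group replicate 2 was the lowest array for 12 of 12 member probe sets, against 34.1% of all probe sets. In the delta EGFP-positive group replicate 3 was the lowest for 11 of 12, against 33.1% of all probe sets, the exception being a Jund probe set on which replicates 2 and 3 read 11.16 and 11.17. The median range within the WT EGFP-positive group was 1.84 for the members and 0.30 for all probe sets, and within the delta EGFP-positive group 0.88 and 0.29. A range above 1 was seen in 10 of 12 member probe sets in the WT group (4.73% of all probe sets) and in 5 of 12 in the delta group (2.59%). These shares describe the 8 arrays and were not tested. Leaving out either array raises its group mean by construction for these probe sets, also in the refits below. It also narrows the range of the group, except for that Jund probe set in the delta group.

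**Figure D1:**
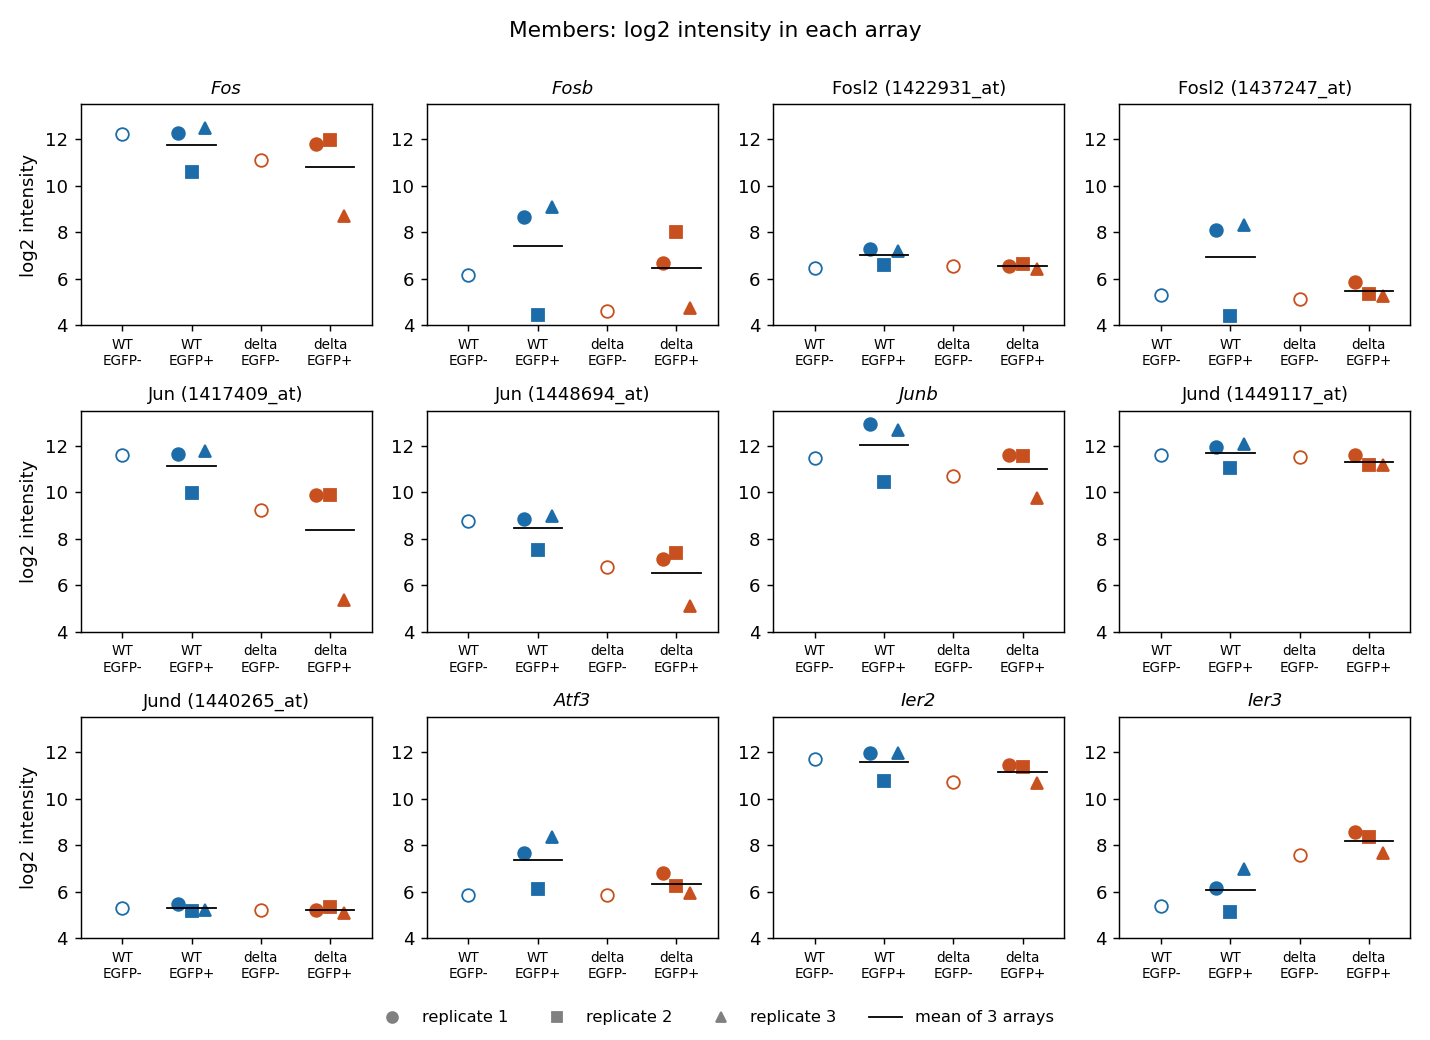
Each panel plots the log2 intensity of 1 member probe set in the 8 arrays, by group, with replicates 1, 2 and 3 as circles, squares and triangles, open circles for the single EGFP-negative arrays and a line at the mean of 3 arrays. WT EGFP-positive replicate 2 lies lowest of its group in all 12 panels, while Ier3 is the panel in which delta EGFP-positive arrays lie above all WT EGFP-positive arrays.

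Fos, the founding member of its family, read 12.26, 10.59 and 12.48 in WT EGFP-positive replicates 1, 2 and 3. It read 11.78, 11.97 and 8.71 in delta EGFP-positive replicates 1, 2 and 3, 12.21 in WT EGFP-negative and 11.10 in delta EGFP-negative. The allele groups overlapped, and delta replicate 3 was the lowest of the 8 arrays. The group means were 11.78 ± 1.04 for WT and 10.82 ± 1.83 for delta (SD, n = 3 each), a difference of -0.96 (SE 0.88, limma adjusted p = 0.59). Without delta EGFP-positive replicate 3 the difference turned to 0.10 (limma adjusted p = 0.95; 0.067 to 0.99 over all alternatives).

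Fosb, a close relative of Fos, had the widest range in the WT EGFP-positive group. It read 8.68, 4.45 and 9.08 in the WT EGFP-positive replicates and 6.67, 8.01 and 4.73 in the delta EGFP-positive replicates. The EGFP-negative arrays read 6.15 for WT and 4.64 for delta. The value of 4.45 was at the 20.3 percentile of its array and the value of 9.08 at the 86.3 percentile of its own. The groups overlapped, with means of 7.40 ± 2.57 and 6.47 ± 1.64 (SD, n = 3 each) and a difference of -0.93 (SE 1.27, limma adjusted p = 0.74). It was -2.41 when WT EGFP-positive replicate 2 was left out (limma adjusted p = 0.079). Leaving out delta EGFP-positive replicate 3 gave -0.07 (limma adjusted p = 0.99), and the adjusted p lay between 0.027 and 0.99 over the alternatives.

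Fosl2, which encodes the Fos-related protein Fra-2, was read by a pair of probe sets that differed in their ranges. Probe set 1437247_at read 8.12, 4.40 and 8.33 in the WT EGFP-positive replicates, 5.87, 5.36 and 5.25 in the delta EGFP-positive replicates, and 5.30 and 5.13 in the WT and delta EGFP-negative arrays. WT replicates 1 and 3 thus lay above the other 6 arrays. Readings of this probe set lay between the 19.2 and 79.8 percentile of an array. Probe set 1422931_at read 7.28, 6.61 and 7.21 in the WT EGFP-positive replicates, 6.55, 6.66 and 6.44 in the delta EGFP-positive replicates, and 6.46 and 6.56 in the EGFP-negative arrays. The same 2 WT arrays were highest, over a range of 0.84 in place of 3.93. The differences between the alleles in EGFP-positive cells were -1.46 (SE 0.93, limma adjusted p = 0.41) and -0.49 (SE 0.19, limma adjusted p = 0.15). When WT EGFP-positive replicate 2 was left out they were -2.73 (limma adjusted p = 2e-04) and -0.70 (0.0092), and over the alternatives the adjusted p ran from 2e-04 to 0.85 and from 0.0092 to 0.84.

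Jun, the partner of Fos in the classical AP-1 dimer, had the largest difference between the alleles among the members that were lower in delta arrays. Probe set 1417409_at read 11.66, 9.96 and 11.77 in the WT EGFP-positive replicates and 9.90, 9.88 and 5.37 in the delta EGFP-positive replicates. It read 11.62 in WT EGFP-negative and 9.22 in delta EGFP-negative. The value of 5.37 was at the 42.7 percentile of its array. The 3 delta arrays lay below the 3 WT arrays by a gap between 9.90 and 9.96. Probe set 1448694_at showed the same order of groups, at 8.85, 7.52 and 8.96 in the WT replicates, 7.14, 7.39 and 5.11 in the delta replicates, and 8.76 and 6.78 in the WT and delta EGFP-negative arrays. The differences were -2.75 (SE 1.17, limma adjusted p = 0.19) and -1.90 (SE 0.62, limma adjusted p = 0.097), neither past the threshold of 0.05. Without delta EGFP-positive replicate 3 they were -1.25 (limma adjusted p = 0.2) and -1.18 (0.14), while leaving out WT EGFP-positive replicate 2 gave -3.33 (0.11) and -2.36 (0.032). Over all alternatives the adjusted p ran from 0.00022 to 1 for the first and from 0.00046 to 0.93 for the second.

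Junb, a Jun family member with a weaker activating domain, read 12.95, 10.46 and 12.69 in the WT EGFP-positive replicates and 11.62, 11.57 and 9.77 in the delta EGFP-positive replicates. The EGFP-negative arrays read 11.48 for WT and 10.68 for delta. The groups overlapped because WT replicate 2 lay below delta replicates 1 and 2. The difference was -1.04 (SE 0.73, limma adjusted p = 0.46). It became -1.83 when WT EGFP-positive replicate 2 was left out (limma adjusted p = 0.047; 0.0017 to 0.95 over the alternatives). Without delta EGFP-positive replicate 3 it was -0.43 (0.79).

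Jund, the Jun family member known for steady expression in resting cells, varied least among the Jun genes. Probe set 1449117_at read 11.95, 11.03 and 12.06 in the WT EGFP-positive replicates, 11.59, 11.16 and 11.17 in the delta EGFP-positive replicates, and 11.59 and 11.53 in the WT and delta EGFP-negative arrays. All 8 arrays lay within 1.03 of each other. The difference of -0.38 (SE 0.27, limma adjusted p = 0.48) did not pass, and was -0.70 without WT EGFP-positive replicate 2 (limma adjusted p = 0.025; 0.025 to 0.92 over the alternatives). The other probe set, 1440265_at, read 5.08 to 5.46 across the 8 arrays, between the 36.4 and 44.5 percentile of an array, with a difference of -0.08 (SE 0.13, limma adjusted p = 0.79).

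Atf3, a stress-induced factor of the ATF family that pairs with Jun proteins, read 7.66, 6.11 and 8.33 in the WT EGFP-positive replicates and 6.82, 6.24 and 5.96 in the delta EGFP-positive replicates. Both EGFP-negative arrays read 5.87, below all 6 EGFP-positive arrays. The allele groups overlapped and differed by -1.03 (SE 0.52, limma adjusted p = 0.28), and by -1.65 without WT EGFP-positive replicate 2 (limma adjusted p = 0.0071; 0.0071 to 0.86 over the alternatives). Without WT EGFP-positive replicate 3 the difference was -0.54 (0.6). Ier2, an early response gene whose product acts in the nucleus, read 11.94, 10.77 and 11.95 in the WT EGFP-positive replicates and 11.45, 11.36 and 10.65 in the delta EGFP-positive replicates, with 11.69 and 10.71 in the WT and delta EGFP-negative arrays. Its groups overlapped, with a difference of -0.40 (SE 0.35, limma adjusted p = 0.58), which was -0.79 without WT EGFP-positive replicate 2 (0.058) and -0.15 without delta EGFP-positive replicate 3 (0.87), within 0.034 to 0.93 over the alternatives.

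Ier3, an early response gene linked to cell survival, went the other way. It read 6.15, 5.11 and 6.97 in the WT EGFP-positive replicates, 8.55, 8.37 and 7.66 in the delta EGFP-positive replicates, 5.38 in WT EGFP-negative and 7.59 in delta EGFP-negative. These readings lay between the 37.1 and 81.8 percentile of an array. The 4 arrays labelled delta lay above the 4 labelled WT, and within each EGFP-positive group the lowest replicate was the one that was also lowest for Fos and Jun. Ier3 rose 4.34-fold in delta EGFP-positive arrays (difference 2.12, SE 0.44, limma adjusted p = 0.019), the group means being 6.08 ± 0.93 and 8.20 ± 0.47 (SD, n = 3 each). Leaving out WT EGFP-positive replicate 1, delta EGFP-positive replicate 1 or delta EGFP-positive replicate 2 ended the call, with limma adjusted p values of 0.065, 0.084 and 0.074. Over all alternatives the adjusted p was between 0.0021 and 0.99, the highest with the mean of heat shock genes as a covariate (difference 0.16). A block for the title number run left the difference at 2.12 with a limma adjusted p of 0.051.

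Counted together, 1 of 12 member probe sets passed between delta and WT EGFP-positive arrays, 1 higher and 0 lower, where limma called 12.7% of all 45037 probe sets (7.35% higher and 5.39% lower). Among probe sets at or above the median mean level, 1 of 11 members passed, where limma called 25.7% of all 22519 such probe sets. At an unadjusted p under 0.05 there were 4, both Jun probe sets, Fosl2 1422931_at and Ier3, against 24.9% of all probe sets. The arrays of the 2 groups did not overlap for 3 of 12, Ier3 higher and both Jun probe sets lower, against 29% of all probe sets (15.6% higher and 13.4% lower). The median difference was -0.95 over the members and -0.01 over all probe sets, with 11 of 12 below 0. An exact permutation test of 3 against 3 arrays could not give a p below 0.1. Without WT EGFP-positive replicate 2 the count of calls was 7 of 12 (Ier3 higher, and both Fosl2 probe sets, Jun 1448694_at, Junb, Jund 1449117_at and Atf3 lower), where 16.8% of all probe sets were called. That array was the lowest of its group for every member, so leaving it out narrows the spread of the group and raises its mean by construction (for Ier3 too). Without that array and delta EGFP-positive replicate 3 together, 10 of 12 were called where 17.7% of all probe sets were, and with the title number run as a block 0 of 12 where 10.4% were. With the heat shock mean as a covariate 0 of 12 were called and 0% of all.

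The sign of the difference was not the same in the 3 title number runs. In the first, 11 of 12 member probe sets were lower in the delta EGFP-positive array than in the WT EGFP-positive array, with a median of -0.78. In the second, which holds WT replicate 2, 10 of 12 were higher, with a median of 0.37. In the third, which holds delta replicate 3, 11 of 12 were lower, with a median of -2.65. For Fos the differences were -0.48, 1.38 and -3.78, and for Fosb -2.01, 3.56 and -4.35. For Jun 1417409_at they were -1.76, -0.09 and -6.40, and for Ier3 2.40, 3.26 and 0.69. The sign was the same in all 3 runs for 3 of 12 probe sets, those of Jun and Ier3, against 44.7% of all probe sets. Over all probe sets the median difference was 0.01, -0.01 and 0.00 in the 3 runs.

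**Figure D2:**
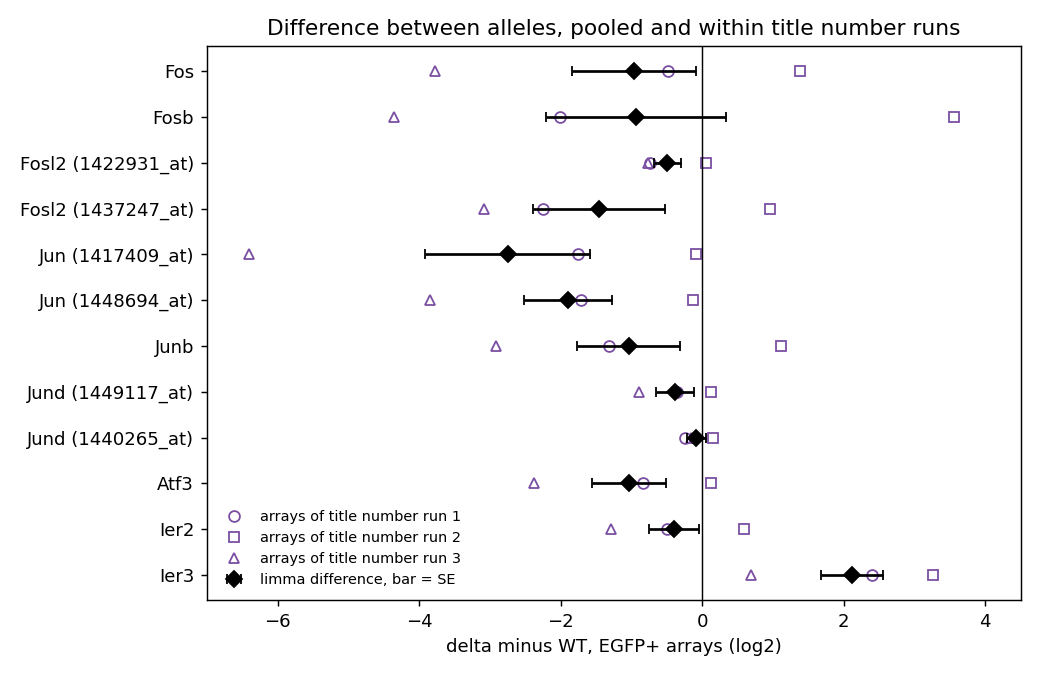
The plot gives, for each member probe set, the delta minus WT difference in EGFP-positive arrays (log2) from limma as a black diamond with its SE, and the difference between the 2 arrays of each title number run as open symbols. Ier3 is positive in all 3 runs, Jun is negative in all 3, and Fos and Fosb run from 1.38 and 3.56 in the second run to -3.78 and -4.35 in the third.

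The arrays that were low differed in which members were lowest. In WT EGFP-positive replicate 2 the distance from the mean of the other 2 arrays was -4.43 for Fosb, -3.82 for Fosl2 1437247_at, -2.36 for Junb, -1.88 for Atf3, -1.79 for Fos and -1.75 for Jun 1417409_at. In delta EGFP-positive replicate 3 it was -4.51 for Jun 1417409_at, -3.17 for Fos, -2.60 for Fosb, -1.83 for Junb, -0.57 for Atf3 and -0.36 for Fosl2 1437247_at. Jun was thus farther below its group in the delta array and Fosl2 in the WT array, a contrast between single arrays that has no replicate. Ier2 lay at -1.18 in the WT array and -0.75 in the delta array, and Ier3 at -1.45 and -0.80.

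**Figure D3:**
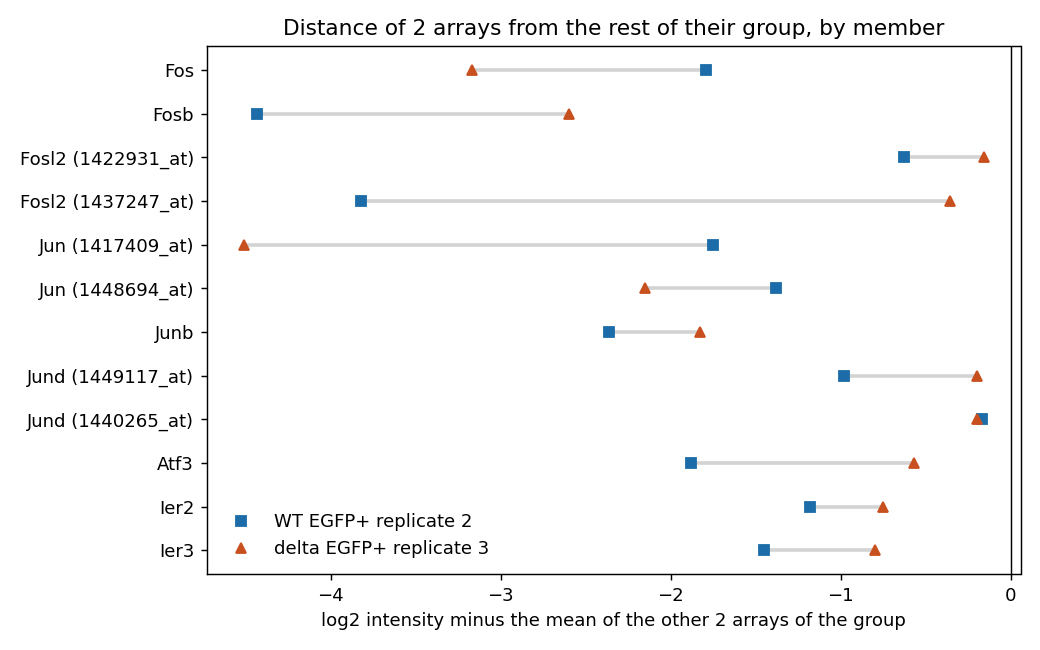
The plot gives, for each member probe set, the log2 distance of WT EGFP-positive replicate 2 (squares) and delta EGFP-positive replicate 3 (triangles) from the mean of the other 2 arrays of the same group. Distances reach -4.43 for Fosb in the WT array and -4.51 for Jun in the delta array, and lie between -0.16 and -0.20 for Jund 1440265_at and, in the delta array, for Fosl2 1422931_at and Jund 1449117_at.

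Between EGFP-positive and EGFP-negative cells 0 of 12 member probe sets passed for either allele with limma, and 0 had an unadjusted p under 0.05. In the same fits 1.1% of all probe sets were called for WT (0.706% higher and 0.395% lower, 9.41% unadjusted) and 0.0755% for delta (0.0178% higher and 0.0577% lower, 9.73% unadjusted). The single EGFP-negative arrays were assumed to vary like the replicated groups. Atf3 and Fosl2 1422931_at were higher in all 3 WT EGFP-positive arrays than in the WT EGFP-negative array, 2 of 12 probe sets against 25.3% of all. None of the 12 was lower in all 3 (27.8% of all), so that 2 of 12 did not overlap against 53% of all. The differences were 1.50 (SE 0.73, limma adjusted p = 0.6) and 0.57 (SE 0.26, limma adjusted p = 0.57). Fosb, Fosl2 1437247_at, Atf3 and Ier3 were higher in all 3 delta EGFP-positive arrays than in the delta EGFP-negative array, 4 of 12 against 29.5% of all, by 1.83, 0.36, 0.47 and 0.61. None was lower in all 3 (27.9% of all), and 57.4% of all probe sets did not overlap in either direction. The interaction, which asks whether the EGFP difference depends on the allele, was called for 0 of 12 by limma (0.04% of all probe sets, 0.0155% higher and 0.0244% lower), with 0 at an unadjusted p under 0.05 (6.14%). The interaction estimates lay between -1.29 (SE 1.87) for Fosl2 1437247_at and 0.59 (SE 0.70) for Ier2. The refits that follow leave out arrays that were the lowest of their group for most members. That raises the group mean and narrows the spread by construction, and supports no direction. Without WT EGFP-positive replicate 2, Atf3 (2.12, limma adjusted p = 0.031) and Fosl2 1437247_at (2.93, 0.0025) were called in the WT comparison, where 2.65% of all probe sets were. Without that array and delta EGFP-positive replicate 3 together, 4 of 12 were called in the WT comparison (4.1% of all) and 1 of 12 for the interaction (0.38% of all).

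The EGFP-negative arrays of the alleles, 1 each, can be set side by side with no test. Jun differed most, with delta minus WT at -2.40 and -1.97 for its probe sets. Fosb differed by -1.51, Fos by -1.12, Ier2 by -0.98 and Junb by -0.80. Ier3 differed by 2.20, close in size to its difference between the EGFP-positive groups. At least 2-fold lower were 4 of 12 member probe sets (1.72% of all) and at least 2-fold higher 1 of 12 (2.82% of all). Atf3, both Fosl2 and both Jund probe sets lay within 0.16 of each other.

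By group mean, Jun on both probe sets and Fos were ordered WT EGFP-negative, WT EGFP-positive, delta EGFP-negative and delta EGFP-positive, from high to low. For both genes the first pair of groups did not differ beyond the spread of the WT replicates, nor the last pair beyond that of the delta replicates. Fosb and Fosl2 1437247_at were ordered WT EGFP-positive, delta EGFP-positive, WT EGFP-negative and delta EGFP-negative. Atf3 had the same order with its EGFP-negative arrays tied at 5.87. Junb was ordered WT EGFP-positive, WT EGFP-negative, delta EGFP-positive and delta EGFP-negative, and Ier2 WT EGFP-negative, WT EGFP-positive, delta EGFP-positive and delta EGFP-negative. Ier3 was ordered delta EGFP-positive, delta EGFP-negative, WT EGFP-positive and WT EGFP-negative, and within each allele the EGFP difference (0.61 for delta and 0.70 for WT) was smaller than its SE of 0.63 in the first case and above it in the second, neither past the threshold.

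Other genes of the AP-1 family and related leucine zipper factors were counted with 1 probe set a gene. Of 16 measured, 2 rose and 0 fell in delta against WT EGFP-positive arrays, with a median difference of -0.08, where of all 18193 genes 10.4% rose and 6.02% fell with a median of 0.02. Batf, which pairs with Jun proteins and is needed for several effector T cell fates, rose by 0.66 (SE 0.12, limma adjusted p = 0.0097), with 10.67, 10.45 and 10.73 in the WT replicates and 11.22, 11.34 and 11.27 in the delta replicates. Mafg, a small Maf protein without an activating domain, rose by 0.68 (SE 0.17, limma adjusted p = 0.034). Maf passed for WT EGFP-positive against EGFP-negative (1.85, limma adjusted p = 0.026). Maff, another small Maf protein, read 9.65, 6.04 and 9.57 in the WT EGFP-positive replicates and 7.70, 7.28 and 5.82 in the delta EGFP-positive replicates, with the same arrays low as for Fos. Fosl1, the remaining Fos family gene, read 4.80 to 5.29 in all 8 arrays.

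Other immediate-early genes, a list that holds no member but was chosen with earlier results of these data known, shared the order of arrays. WT EGFP-positive replicate 2 was the lowest of its group for 33 of 40 of them, delta EGFP-positive replicate 3 for 32 of 40, and both for 30 of 40, against 29.7%, 34.7% and 10.9% of all genes. Their mean level was 10.75, 9.39 and 10.82 in the WT EGFP-positive replicates, 10.10, 9.94 and 9.18 in the delta EGFP-positive replicates, and 9.52 and 9.43 in the WT and delta EGFP-negative arrays. In delta against WT EGFP-positive arrays 5 of 40 fell and 0 rose, with a median of -0.64, where 6.02% of all genes fell and 10.4% rose. Those named by size were the antiproliferative gene Btg2 (-1.34, limma adjusted p = 0.0016), Ier5 (-0.95, 0.038), the messenger RNA decay factor Zfp36l1 (-0.92, 0.0081) and the cytokine signalling inhibitor Socs3 (-0.77, 0.026). The array order was not shared by all early genes. Egr2 read 8.46, 9.40 and 8.89 in the WT EGFP-positive and 9.55, 9.47 and 10.25 in the delta EGFP-positive replicates, highest in the arrays in which Fos was lowest, while Nr4a1 read 12.41, 10.46 and 12.61 and 11.12, 10.81 and 10.05. Rgs1 rose in WT EGFP-positive against EGFP-negative arrays (3.57, limma adjusted p = 0.0044), the only call of that list there, where 1.02% of all genes rose.

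Genes whose profile over the 8 arrays came closest to that of Fos were ranked by the root mean square of the differences after each profile's own mean was subtracted, among the 10962 genes whose mean level was at or above the median of all probe sets. The nearest were Dusp1 (0.37), a phosphatase that inactivates MAP kinases, Ppp1r15a (0.48), a regulatory subunit that acts in the stress response, Trp53inp2 (0.52), Junb (0.56), Zfp36 (0.59) and the chaperone Dnajb9 (0.60), where a flat profile would score 1.18. Dusp1 read 13.11, 10.62 and 13.35 in the WT EGFP-positive replicates, 12.29, 12.72 and 9.48 in the delta EGFP-positive replicates, and 12.13 and 11.24 in the EGFP-negative arrays. For Jun the nearest were Ppp1r15a (0.88), Fos (0.94) and Rgs2 (0.95), against 1.95 for a flat profile. For the mean profile of the 9 members they were the activation marker Cd69 (0.26), Tiparp (0.28) and Rab26os (0.28), against 0.79. The arrays share their groups and, in part, their title number runs, and the ranking is a description.

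Heat shock genes are also known to rise with handling. In the WT EGFP-positive group some of them followed the order of the members, but the list mean did not. Their mean over 13 genes was 10.41, 10.45 and 10.25 in the WT EGFP-positive replicates, 9.75, 9.57 and 9.56 in the delta EGFP-positive replicates, and 9.90 and 9.71 in the WT and delta EGFP-negative arrays, so that it separated the EGFP-positive groups. WT EGFP-positive replicate 2 was the lowest for 5 of 13 (29.7% of all genes), delta EGFP-positive replicate 3 for 8 of 13 (34.7%), and both for 4 of 13 (10.9%). Of the 13, 6 fell and 1 rose in delta against WT EGFP-positive arrays, with a median of -0.25. Among all genes 6.02% fell and 10.4% rose. Hspa1b, an inducible chaperone, read 9.11, 10.75 and 7.74 in the WT EGFP-positive replicates and 6.19, 5.90 and 5.17 in the delta EGFP-positive replicates. Where Fos was lowest it was thus highest among the WT arrays and lowest among the delta arrays. Dnajb4, a co-chaperone on the same list, read 10.44, 8.42 and 10.51 and then 7.54, 6.70 and 6.57, lowest in the same arrays as Fos. The part of handling in the members' levels was not tested.

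**Figure D4:**
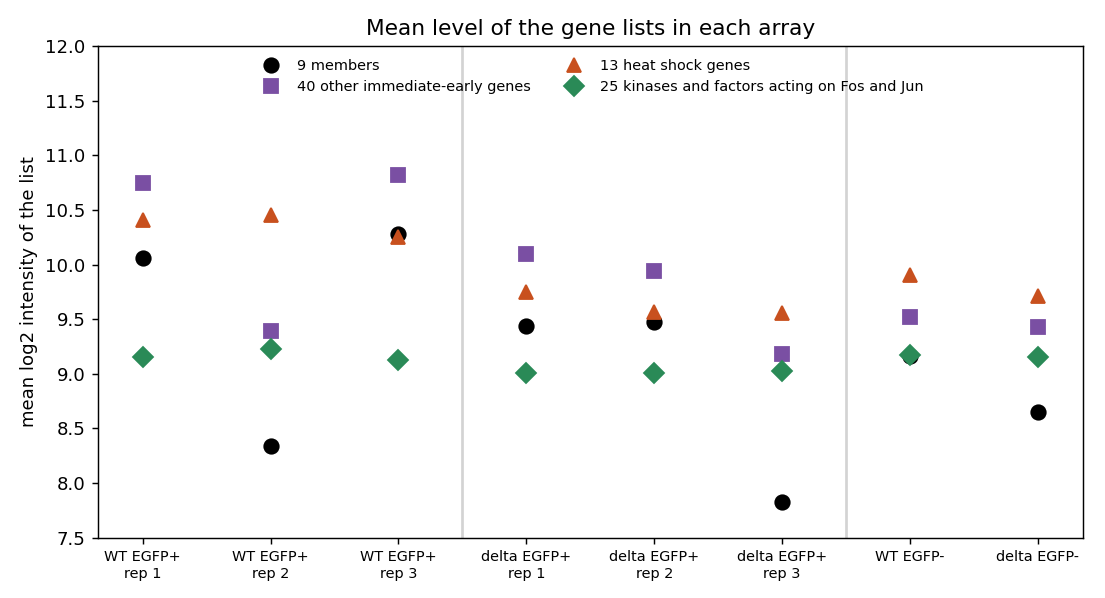
The plot gives the mean log2 intensity of 4 gene lists in each of the 8 arrays. The 9 members and the 40 other immediate-early genes are lowest in WT EGFP-positive replicate 2 (8.34 and 9.39) and delta EGFP-positive replicate 3 (7.83 and 9.18) within their groups, while the 25 kinases and factors acting on Fos and Jun stay between 9.01 and 9.23.

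Kinases and factors that act on Fos and Jun were counted in the same way. Of 25 measured, 5 fell and 1 rose in delta against WT EGFP-positive arrays, with a median of -0.11. Among all genes 6.02% fell and 10.4% rose. Those named were Sos1, an activator of Ras (-1.26, SE 0.26, limma adjusted p = 0.018), Map2k3, which activates p38 kinases (0.88, SE 0.16, 0.0096), Rasgrp1, which links the T cell receptor to Ras (-0.61, SE 0.10, 0.0083), and Prkcq, the protein kinase C of the T cell synapse (-0.60, SE 0.12, 0.015). Rasgrp1 read 12.13, 12.03 and 12.13 in the WT EGFP-positive and 11.57, 11.44 and 11.44 in the delta EGFP-positive replicates, without the array differences of Fos.

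Among T cell genes known to be bound by AP-1 with NFAT, 7 of 12 rose and 1 fell in delta against WT EGFP-positive arrays, with a median of 0.97. Of all genes 10.4% rose and 6.02% fell. The interleukin gene Il4 read 4.65, 4.84 and 4.73 in the WT and 9.85, 9.66 and 9.73 in the delta EGFP-positive replicates (difference 5.01, SE 0.11, limma adjusted p = 3e-06). Ifng rose by 4.05 (SE 0.35, 0.00045), Il13 by 1.62 (SE 0.23, 0.0038) and the death ligand Fasl by 1.62 (SE 0.27, 0.0074). The gene that fell was Il2ra. Cd69, an early activation marker on the same list, read 11.38, 9.92 and 11.57 and then 10.45, 10.94 and 8.87, with the arrays in the order seen for Fos, and did not pass (-0.87, limma adjusted p = 0.44).

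Markers of other cells and RNA quality were read beside the array order. The 3′ minus 5′ difference of the Actb control probe sets was 0.34 in WT EGFP-positive replicate 2 and 0.23 in delta EGFP-positive replicate 3, within 0.23 to 0.34 over all arrays, and that of Gapdh ran from -0.36 to -0.17. Of all genes, 29.7% were lowest in WT EGFP-positive replicate 2 within its group, and 34.7% in delta EGFP-positive replicate 3. The myeloid markers were lowest in WT replicate 2 for 4 of 7 and in delta replicate 3 for 6 of 7. Their summed linear intensity ran from 1550 to 2540 in the WT EGFP-positive and from 1380 to 1660 in the delta EGFP-positive arrays, and was 1200 and 1170 in the EGFP-negative arrays. Cst3 gave the largest part of each sum and read 10.12 to 10.24 in the EGFP-positive arrays. Csf1r, the receptor that defines macrophages, read 8.36, 6.81 and 9.85 and then 7.13, 6.57 and 5.88 in these groups. Lyz2, on the same list, went the other way between the alleles, with means of 5.81 in WT and 6.31 in delta EGFP-positive arrays. Lyz2, Cd14 and Cst3 were not lowest in WT replicate 2, and Itgam was not lowest in delta replicate 3. Cd8a and Cd8b1 were both lowest in the same 2 arrays, with a summed intensity of 138 to 218 in WT and 156 to 628 in delta EGFP-positive arrays. B cell markers were lowest in these arrays for 2 of 5 and 3 of 5, with sums of 292 to 406 and 268 to 353. NK cell markers were lowest in these arrays for 0 of 3 and 1 of 3, erythroid markers for 1 of 2 in each, stromal markers for 2 of 4 and 3 of 4, and T cell markers for 0 of 5 and 3 of 5. The deposited intensities do not reach 0 and no detection calls were used, so a reading does not show that a cell type was present. In sorted bulk samples fewer cells of a type and less RNA per cell cannot be told apart, and the part of these markers in the members' levels was not tested.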

How the data were processed

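RNA of sorted CD4+ T cells was extracted with RNEasy and labelled by the Affymetrix biotin method, per the labels' protocols. The authors deposited linear intensity per probe set. The submitters' processing notes name RMA, a method that subtracts background, equalises quantiles and compresses differences at low intensity. Its version is stated nowhere in the sources used here. Log2 was taken with no pseudocount. Of 45101 probe sets, 64 controls were left out and 45037 fitted without a filter. The platform annotation gave 34945 probe sets 1 symbol, 932 several and 9160 none here; 34754 were matched to a current gene record. Genes other than members were represented by the probe set of highest mean.

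All 8 arrays entered one model of group means (limma 3.58.1, R 4.3.3), with 4 residual and 3.72 prior degrees of freedom. Its p-values are two-sided, were adjusted by Benjamini-Hochberg across every probe set, and were read at a threshold of 0.05. The script was tested on simulated data. Members, lists and alternatives were chosen with earlier results of these data known. Members were named in full; each list was named by up to 4 calls, largest first. The motif TGACATCA and the genes Maf, Maff, Fosl1, Egr2, Nr4a1, Rgs1, Ikzf2, Ctla4 and Tnfrsf18 were chosen after values were seen. No detection calls were used, and percentiles are given for some members with low values.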

Additional observations from a re-analysis of the deposited data

How the results depend on the processing

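Of 620 differences recomputed for the member probe sets under the alternatives, 527 kept their direction and their side of the threshold, 22 came to pass it, 5 (all of Ier3 between the alleles) no longer passed, and 66 turned direction, 0 of these past the threshold. The count of member probe sets called between delta and WT EGFP-positive arrays, 1 of 12, was 0 with the title number run as a block and 0 with the heat shock mean as a covariate. It ran from 0 to 7 when single arrays were left out. It was 10 without WT EGFP-positive replicate 2 and delta EGFP-positive replicate 3 together, where 17.7% of all probe sets were called. Those arrays were picked for low values of such genes, so that setting narrows the spread by construction and supports no direction. In it 4 probe sets were called for WT EGFP-positive against EGFP-negative (0 to 2 without single arrays) and 1 for the interaction, Fosl2 1437247_at (-2.45). The heat shock mean separates the EGFP-positive groups, and with it as a covariate limma called 0 probe sets of all 45037 between them. Between delta and WT EGFP-positive arrays it turned Jund 1440265_at to 0.09 and moved most other members by over 1.5 times. The differences became -0.28 for Jun 1417409_at, -0.48 for Fos, -6.65 for Fosb, -5.86 and -1.25 for Fosl2 1437247_at and 1422931_at, -3.05 for Atf3, -1.82 for Junb, -1.01 for Jund 1449117_at, -1.06 for Ier2 and 0.16 for Ier3, with Jun 1448694_at at -1.92 and no adjusted p under 0.84.

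Directions that turned belong to differences that did not pass. With the title number run as a block, those for WT EGFP-positive against EGFP-negative became 0.29 for Fos, 0.53 and 0.19 for Jun, 0.09 for Jund 1440265_at and 0.21 for Ier2. For delta EGFP-positive against EGFP-negative they became 0.45 for Fos, 0.11 for Fosl2 1422931_at, 0.18 and 0.26 for Jun, and 0.05 and 0.09 for Jund. Without both arrays named above, the WT differences became 0.16 for Fos, 0.10 and 0.15 for Jun, 0.05 for Jund 1440265_at and 0.25 for Ier2. The delta ones became 0.78 for Fos, 0.04 for Fosl2 1422931_at, 0.67 and 0.48 for Jun and 0.06 for Jund 1440265_at. The interaction became -0.04 for Fosb and 0.57 for Jun 1417409_at. With the heat shock covariate, Ier2 turned to 0.28 for WT, Fosl2 1437247_at to -0.12 and Jund 1440265_at to 0.01 for delta, and the interaction to -3.70 for Fosb and 1.50 for Jun 1417409_at. Quantile normalization turned Fosl2 1422931_at to 0.01 for delta and the interaction of Jund 1440265_at to -0.01, and the mean over its probe sets turned Fosl2 to 0.17 for delta. The cause was not tested.

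Leaving out single arrays turned these ranges through 0. For delta against WT EGFP-positive they were -1.55 to 0.10 for Fos and -0.14 to 0.01 for Jund 1440265_at. For WT EGFP-positive against EGFP-negative they were -0.79 to 0.16 for Fos, -0.34 to 0.25 for Ier2, -0.81 to 0.10 and -0.57 to 0.15 for Jun, and -0.10 to 0.05 and -0.09 to 0.42 for Jund. For delta EGFP-positive against EGFP-negative they were -0.85 to 0.78 for Fos, -0.07 to 0.04 for Fosl2 1422931_at, -1.59 to 0.67 and -0.66 to 0.48 for Jun, -0.01 to 0.92 for Junb and -0.07 to 0.06 for Jund 1440265_at. For the interaction they were -0.44 to 1.21 for Fos, -0.91 to 1.44 for Fosb, -0.57 to 0.36 for Ier3, -1.11 to 1.15 and -0.39 to 0.79 for Jun, -1.03 to 0.37 for Junb and -0.06 to 0.09 for Jund 1440265_at. The eBayes setting with trend, the fit of the compared groups alone and the filter on dim probe sets, which leaves out Jund 1440265_at, changed no call or direction of a member. The labels give no replicate numbers; arrays were paired by the run of title numbers, as the block above and as differences within each run.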
